A study of Ovis aries with 8 samples.

Results

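Fatty acid desaturases place double bonds in fatty acyl chains and elongases lengthen the chains, both on the membrane of the endoplasmic reticulum. Of 8 such genes chosen by symbol (SCD, SCD5, FADS1, FADS2, ELOVL1, ELOVL5, ELOVL6 and HSD17B12), the array's annotation named a probe set for 6, with 1 probe set each, among 24016 bovine probe sets measured. FADS1 and HSD17B12 were not named by the annotation and were not analysed here. No desaturase or elongase differed between the genotypes at the thresholds used for all probe sets. ELOVL5 read lower in each NmatCpat lamb than in any NmatNpat lamb, by a small amount, but its genotypes overlapped with median-centred arrays. Over all probe sets 1.32% separated in this direction and 2.74% in either. SCD5 varied widely between lambs of the same genotype.

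The tissue was perirenal adipose, the fat around the kidney, of 4 NmatCpat and 4 NmatNpat lambs, with 1 Affymetrix Bovine Genome array per lamb. NmatCpat lambs inherited the Callipyge allele from the sire and the wild-type allele from the dam, and NmatNpat lambs carried wild-type alleles from both parents. All 8 were unweaned males aged 12 weeks from a Dorset/Suffolk/Rambouillet cross. Each lamb is a separate animal, and with 4 against 4 a two-sided exact permutation test over the 70 arrangements cannot give a p under 0.0286.

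In ruminant fat, dietary unsaturated fatty acids have largely been hydrogenated in the rumen before absorption, so much of the monounsaturated fat is made in the tissue by delta-9 desaturation of stearate to oleate. ELOVL6 supplies this step by lengthening palmitate. FADS2, ELOVL5 and FADS1 act in turn on the essential polyunsaturated fatty acids, and ELOVL1 lengthens saturated and monounsaturated very long chains. Each round of elongation needs a condensing enzyme (an ELOVL protein), a reductase (HSD17B12), a dehydratase (a HACD protein) and a last reductase (TECR).

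Adipocyte transcripts were abundant on every array. Of 12 adipocyte markers 11 had a probe set, and their summed intensity lay between 50568 and 56399 in NmatCpat and between 51906 and 53929 in NmatNpat lambs. ADIPOQ, the adipokine adiponectin, read 13.00 to 13.29 on the log2 scale in NmatCpat lambs, against 12.81 to 13.18 in NmatNpat lambs. Leptin (LEP) read only 3.84 to 5.50 in NmatCpat lambs, against 3.80 to 5.78 in NmatNpat lambs. The array of NmatNpat animal 1 stood apart: 10 of the 12 measured neuron and chromaffin markers were highest there, with a summed intensity of 26445 against 2634 to 3169 in NmatCpat lambs and 2398 to 2694 in the other NmatNpat lambs. On the array of NmatCpat animal 4, 6 of the 9 measured skeletal muscle markers were highest. The summed intensity of the 9 was 5853 there, within the 4649 to 6760 of the NmatNpat lambs. MYH7, the brightest of them, weighs most in that sum and read 11.89 there, against 11.67 to 12.31 in NmatNpat lambs. By mean log2 deviation, where each marker weighs the same, that array stood apart, at 1.23. The other NmatCpat lambs had -0.35 to 0.10, and the NmatNpat lambs -0.71 to 0.12. Differences between the genotypes that rest most on either array are given with and without it. The probes were designed on cattle sequence, so a sheep transcript that differs under them can read low, and levels of different probe sets are not compared.

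Values are log2 intensities after quantile normalization, and differences are NmatCpat minus NmatNpat, tested with limma over all 24016 probe sets. With P of at most 0.05 and more than a 1.5-fold change required, 943 probe sets passed (3.93%), 491 higher (2.04%) and 452 lower (1.88%) in NmatCpat lambs. None passed at an adjusted p under 0.05 in limma (smallest 0.085), while 1118 had P of at most 0.05. Against this background of 3.93%, 0 of the 6 desaturase and elongase genes passed P and fold, and 0 had P of at most 0.05. Their differences ran from -0.86 to 0.48, with 2 above 0 and 4 below 0 and a median of -0.14, beside 0.00546 over all probe sets. In bulk tissue, fewer cells of a type and less RNA per cell cannot be told apart.

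**Figure D1:**
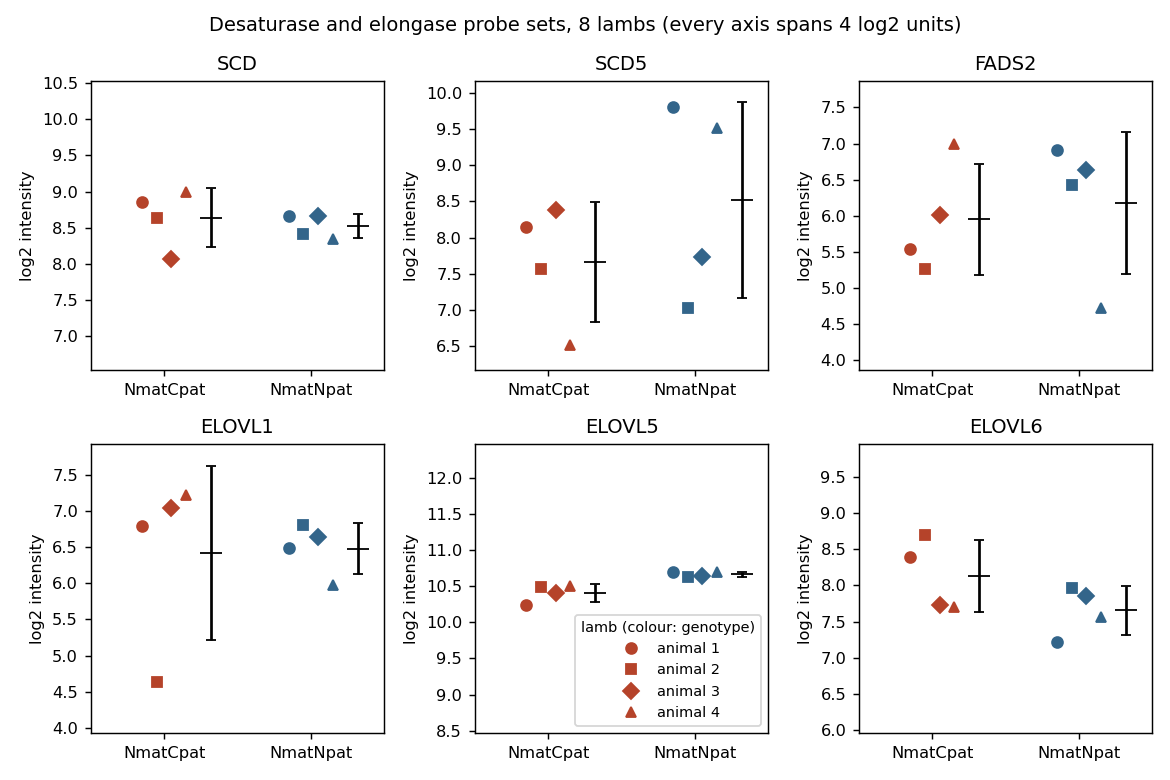
Log2 intensity of the 6 desaturase and elongase probe sets in each lamb, with NmatCpat on the left and NmatNpat on the right of each panel. Symbols mark the animal number and bars the mean ± SD (n = 4). Every axis spans 4 log2 units, so the narrow spread of ELOVL5 (10.24 to 10.70) can be set beside the wide spread of SCD5 (6.52 to 9.81).

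SCD, the main delta-9 desaturase of adipose tissue and the enzyme that makes oleate, read 8.86, 8.64, 8.07 and 8.99 in NmatCpat animals 1 to 4, against 8.66, 8.42, 8.66 and 8.34 in NmatNpat animals 1 to 4. The NmatCpat lambs held both the highest and the lowest reading, and the groups overlapped. The difference was 0.12 (95% interval -0.42 to 0.66, limma P = 0.628, adjusted p = 0.988, exact permutation p = 0.69), a 1.08-fold level in NmatCpat lambs. The interval excluded a 2-fold change in either direction. Leaving out 1 lamb at a time moved the difference between -0.00101, without NmatCpat animal 4, and 0.31, without NmatCpat animal 3, the lamb with the lowest reading.

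SCD5, the second delta-9 desaturase, is best known from brain in human and is not part of the rodent gene set. It read 8.15, 7.57, 8.38 and 6.52 in NmatCpat animals 1 to 4, against 9.81, 7.02, 7.73 and 9.51 in NmatNpat animals 1 to 4. High readings in NmatNpat animals 1 and 4 and a low reading in NmatCpat animal 4 made up most of the gap between the means, and NmatNpat animals 2 and 3 lay within the NmatCpat range. The difference was -0.86 (95% interval -2.49 to 0.77, limma P = 0.257, adjusted p = 0.983, exact permutation p = 0.31), so neither no change nor a 2-fold change was excluded. Without NmatNpat animal 1 it was -0.43, without NmatNpat animal 4 it was -0.53, and without NmatCpat animal 4 it was -0.48. Without NmatNpat animal 1 and NmatCpat animal 4 together it was -0.05. The highest SCD5 reading belonged to the array with the neuron and chromaffin transcripts, but the next highest came from NmatNpat animal 4, whose summed neuron and chromaffin intensity of 2618 was within the range of the other lambs. The part of those transcripts in the SCD5 reading was not tested.

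The spread of SCD5 was wide. For comparison, all probe sets were split by mean level into 4 broad level groups. The SD of SCD5 within genotypes was 1.12, which was 4.81 times the median SD (0.23) of its level group. It was larger than that of 99.6% of the group. This brightest group also held probe sets far above SCD5 (mean level 8.09), such as FABP4 at 13.71. The median SD was 0.35 in the next lower group, so brighter probe sets may enlarge the contrast. As deposited, the SCD5 signal ran from 89.6 to 893.6 over the 8 lambs, a 9.97-fold range, whereas that of SCD ran from 270.1 to 513.9.

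**Figure D2:**
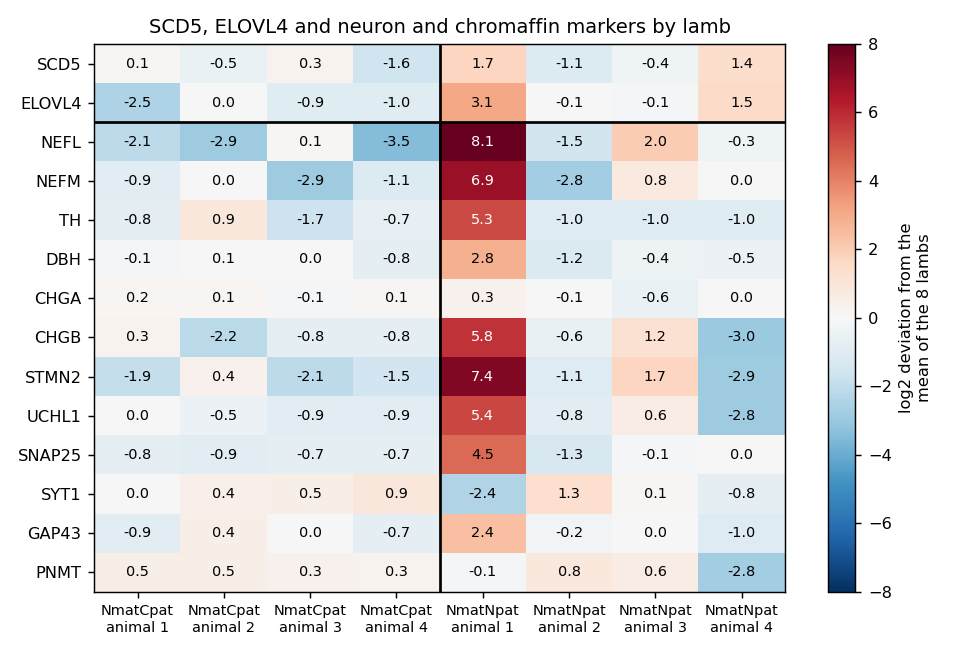
Log2 deviation from the mean of the 8 lambs for SCD5, ELOVL4 and the 12 measured neuron and chromaffin markers, with NmatCpat lambs on the left and NmatNpat lambs on the right. In NmatNpat animal 1 SCD5 lay 1.72 above its mean, along with 10 of the 12 markers, and in NmatNpat animal 4 SCD5 lay 1.42 above its mean without them.

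FADS2, the delta-6 desaturase that begins the conversion of linoleic and alpha-linolenic acid to longer polyunsaturated fatty acids, read 5.54, 5.26, 6.01 and 7.00 in NmatCpat animals 1 to 4, against 6.91, 6.42, 6.63 and 4.73 in NmatNpat animals 1 to 4. Each genotype had 1 lamb that read against the others, NmatCpat animal 4 as the highest of all 8 and NmatNpat animal 4 as the lowest. The difference was -0.22 (95% interval -1.51 to 1.07, limma P = 0.703, adjusted p = 0.988, exact permutation p = 0.77). With 1 lamb left out it lay between -0.70, without NmatNpat animal 4, and 0.02, without NmatNpat animal 1. It was -0.57 without NmatCpat animal 4, and -0.33 without NmatCpat animal 4 and NmatNpat animal 1 together. The SD within genotypes was 0.88, larger than in 96.1% of its level group, where the median SD was 0.35. At a mean level of 6.06, FADS2 lay near the lower edge of that group, so it was compared mainly with brighter probe sets. In the sheep assembly ARS-UI_Ramb_v3.0, FADS2 lies next to FADS1, the delta-5 desaturase, and to FADS3, with 0 other protein-coding genes between them. FADS3, a sphingoid base desaturase in other mammals, had a difference of 0.04 (95% interval -0.42 to 0.51).

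ELOVL1, the elongase of saturated and monounsaturated very long chains, read 6.79, 4.64, 7.04 and 7.22 in NmatCpat animals 1 to 4, against 6.49, 6.80, 6.64 and 5.98 in NmatNpat animals 1 to 4. NmatCpat animal 2 read far below the other NmatCpat lambs, which otherwise lay at or above most NmatNpat lambs. The difference was -0.06 (95% interval -1.36 to 1.25, limma P = 0.924, adjusted p = 0.998, exact permutation p = 0.97). Without NmatCpat animal 2 it was 0.54, and without NmatNpat animal 2 it was 0.05, so its sign depended on which lamb was left out.

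ELOVL5, the elongase of polyunsaturated fatty acids, read 10.24, 10.49, 10.40 and 10.50 in NmatCpat animals 1 to 4, against 10.69, 10.62, 10.64 and 10.70 in NmatNpat animals 1 to 4. No NmatCpat lamb reached the lowest NmatNpat lamb (exact permutation p = 0.0286, two-sided, the smallest this design allows). Over all probe sets, 1.32% separated with every NmatCpat lamb lower, 1.41% with every NmatCpat lamb higher and 2.74% in either direction, and among the desaturases and elongases 1 of 6 did so. The difference was -0.25, a 0.84-fold level in NmatCpat lambs (95% interval -0.58 to 0.08). It was called at neither threshold by limma (P = 0.12, adjusted p = 0.983), beside the exact permutation p above. With this normalization the interval excluded a 1.5-fold change in either direction, but only narrowly at its lower limit (-0.58).

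ELOVL5 had the smallest spread of the 6. Its SD within genotypes was 0.09, which was 0.379 times the median of its level group, the group that also held SCD5. In that group 3.76% of probe sets had a smaller SD. Since limma draws each variance toward that of other probe sets, P was 0.00706 in the same linear model without this moderation, whereas it was 0.0352 with a trended robust variance. The separation of the genotypes was also seen in the deposited signals, at 1190.3, 1465.3, 1350.8 and 1490.8 in NmatCpat animals 1 to 4, against 1582.6, 1618.6, 1577.6 and 1686.0 in NmatNpat animals 1 to 4. It was also seen after cyclic loess, but with arrays centred on their medians the genotypes overlapped, at 10.14 to 10.59 in NmatCpat lambs, against 10.54 to 10.78 in NmatNpat lambs (difference -0.22, exact permutation p = 0.114). Leaving out single lambs gave differences of -0.28 to -0.20.

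ELOVL6, which lengthens palmitate to stearate and is known as a lipogenic target of SREBP-1c, read 8.40, 8.70, 7.73 and 7.70 in NmatCpat animals 1 to 4, against 7.22, 7.97, 7.86 and 7.57 in NmatNpat animals 1 to 4. NmatCpat animals 1 and 2 were the highest of all 8, while NmatCpat animals 3 and 4 lay among the NmatNpat lambs. The difference was 0.48, a 1.39-fold level in NmatCpat lambs (95% interval -0.20 to 1.15, limma P = 0.144, adjusted p = 0.983, exact permutation p = 0.2). It was above 0 with any 1 lamb left out, at 0.29 (without NmatCpat animal 2) to 0.62 (without NmatCpat animal 4).

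**Figure D3:**
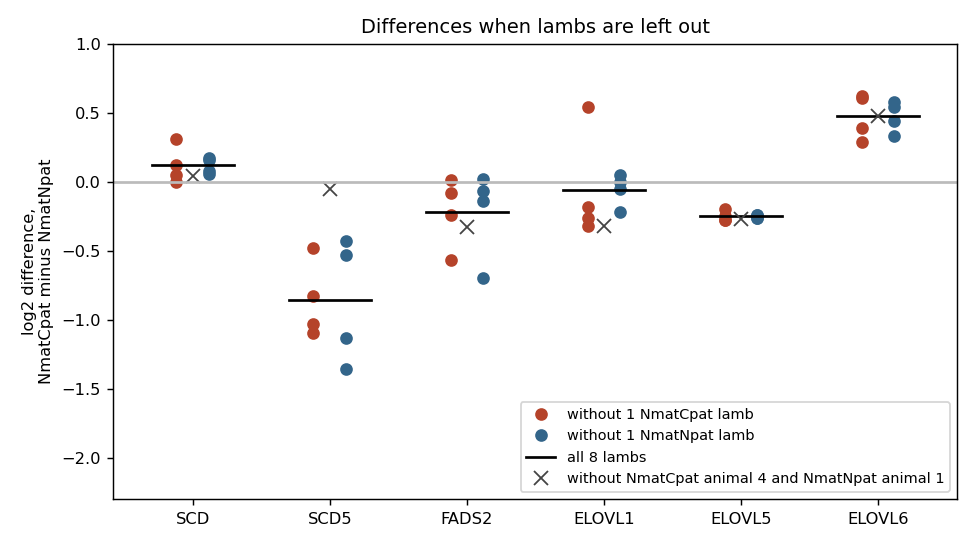
Log2 difference (NmatCpat minus NmatNpat) of each desaturase and elongase with all 8 lambs (line), with 1 lamb left out (points, coloured by the genotype of that lamb) and without NmatCpat animal 4 and NmatNpat animal 1 together (cross). ELOVL5 moved between -0.28 and -0.20, whereas SCD5 moved between -1.36 and -0.43 with 1 lamb left out and to -0.05 without both.

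No pair of the 6 genes was called as correlated from lamb to lamb, but 8 lambs are too few to exclude moderate correlations. Over the 8 lambs, the 15 pairs had Pearson correlations from -0.59 to 0.60, 6 above 0 and 9 below 0, and the smallest adjusted p was 0.746 (exact permutation over 40320 pairings, two-sided). The highest was between FADS2 and ELOVL1 (r = 0.60, exact permutation p = 0.0962, adjusted 0.746; rho = 0.57, exact permutation p = 0.151, adjusted 0.675), and it fell to -0.05 without the 2 lambs farthest from the FADS2 median. The lowest was between ELOVL5 and ELOVL6 (r = -0.59, exact permutation p = 0.121, adjusted 0.746; rho = -0.67, exact permutation p = 0.0831, adjusted 0.675). It was -0.70 without the 2 farthest lambs and -0.30 within genotypes. The delta-9 desaturases SCD and SCD5 had r = -0.38 (exact permutation p = 0.361, adjusted 0.746; rho = -0.40, exact permutation p = 0.327, adjusted 0.675), or -0.11 without the 2 farthest lambs and -0.32 within genotypes.

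Of 20 partner genes (other elongases and desaturases, the later elongation enzymes and the cytochrome b5 system that carries electrons to the desaturases), 11 had a probe set. Of these 7 read higher and 4 lower in NmatCpat lambs, with a median difference of 0.04, and 1 of 11 passed P and fold beside 3.93% of all probe sets. That gene was ELOVL4, the elongase of the longest chains, known from retina, brain and skin. It read 1.60, 4.05, 3.15 and 3.14 in NmatCpat animals 1 to 4, against 7.19, 4.03, 3.95 and 5.62 in NmatNpat animals 1 to 4. NmatNpat animals 1 and 4, also the highest for SCD5, were the highest here, and NmatCpat animal 2 lay above NmatNpat animals 2 and 3. The difference was -2.21 (95% interval -4.09 to -0.33, limma P = 0.0266, adjusted p = 0.983, exact permutation p = 0.086), at levels below the median of all probe sets (5.99) in 7 of 8 lambs. The omission of NmatCpat animal 1 (-1.76), NmatNpat animal 1 (-1.55) or NmatNpat animal 4 (-2.07) ended the call. The other ELOVL4 probe set had a difference of -0.12 (limma P = 0.896, exact permutation p = 0.97).

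The last reductase of elongation, TECR, had a difference of 0.27 (95% interval -0.46 to 1.01, limma P = 0.41, exact permutation p = 0.49). It was 0.05 without NmatCpat animal 1, and 0.59 when both NmatCpat animal 4 and NmatNpat animal 1 were omitted. The dehydratase HACD4 read 6.39 on average in NmatCpat and 6.39 in NmatNpat lambs. CYB5A, the microsomal cytochrome b5 that passes electrons to the desaturases, had a difference of 0.22 (95% interval -0.63 to 1.07, limma P = 0.569, exact permutation p = 0.54), and was -0.05 without NmatCpat animal 2. Of the intervals of the 11 partner genes 8 excluded a 2-fold change, as did those of 2 of the 6 desaturases and elongases.

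**Figure D4:**
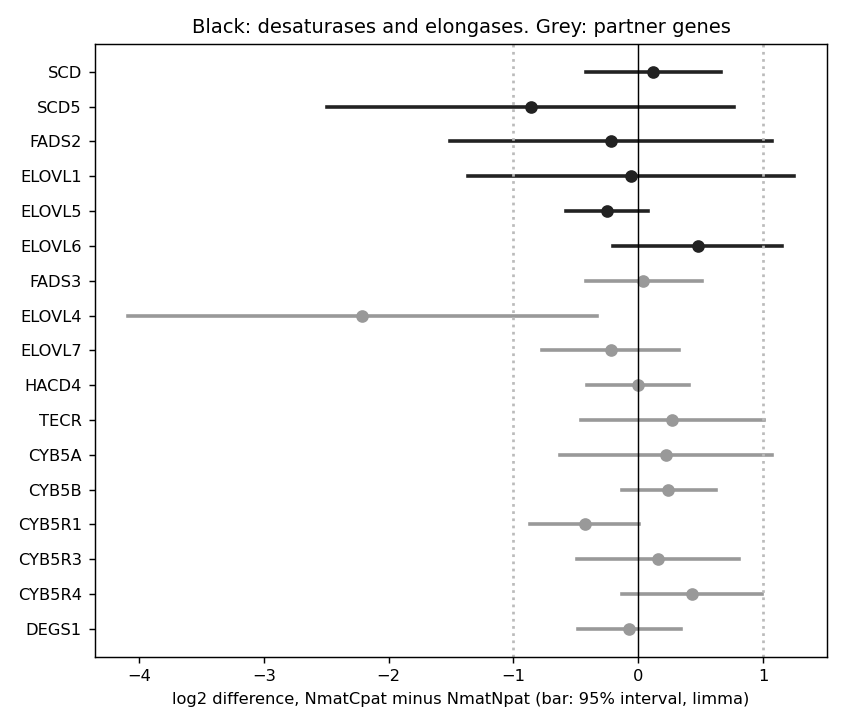
Log2 difference (NmatCpat minus NmatNpat) with its 95% interval from limma for the 6 desaturase and elongase genes (black) and the 11 partner genes (grey), where dotted lines mark a 2-fold change. Of the 17 intervals, the one for ELOVL4 (-4.09 to -0.33) did not include 0, and the widest among the desaturases and elongases was that of SCD5.

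Over the 8 lambs, 66 relations between a desaturase or elongase and a partner gene were computed after the values had been seen. Each gene was read on its brightest probe set. The relations share genes and lambs, so they are not independent. They were not recomputed with NmatNpat animal 1 or NmatCpat animal 4 singled out for omission. By either coefficient 0 had an adjusted p under 0.05. For Pearson's r, 6 had an exact permutation p of at most 0.05, where chance gives about 1 in 20. Of the 6, 3 were above 0. FADS2 and HACD4 had r = 0.87 (exact permutation p = 0.00317, adjusted 0.21) and rho = 0.95 (exact permutation p = 0.00114, adjusted 0.0737), with r = 0.82 without the 2 lambs farthest from the FADS2 median and 0.88 within genotypes. ELOVL5 and ELOVL4 had r = 0.86 (exact permutation p = 0.00655, adjusted 0.216) and rho = 0.76 (exact permutation p = 0.0368, adjusted 0.664), with r = 0.74 without the 2 farthest lambs and 0.69 within genotypes. NmatNpat animal 1, the highest for ELOVL4 (7.19), was not among those 2 lambs. The relation of the other ELOVL4 probe set was not tested. That probe set read highest in NmatNpat animal 1 (5.76) and lowest in NmatNpat animal 4 (1.45), the 2 lambs with the highest ELOVL5. ELOVL6 and CYB5A had r = 0.84 (exact permutation p = 0.0135, adjusted 0.298) and rho = 0.93 (exact permutation p = 0.00223, adjusted 0.0737), with r = 0.76 without the 2 farthest lambs and 0.87 within genotypes. The other 3 were below 0. ELOVL6 and ELOVL7, an elongase of saturated very long chains, had r = -0.79 (exact permutation p = 0.0207, adjusted 0.341) and rho = -0.62 (exact permutation p = 0.115, adjusted 0.664), with r = -0.69 without the 2 farthest lambs and -0.76 within genotypes. NmatNpat animal 1, the lowest for ELOVL6 (7.22) and the highest for ELOVL7 (7.93), was not among those 2 lambs. SCD5 and CYB5R4, a cytochrome b5 reductase, had r = -0.71 (exact permutation p = 0.0423, adjusted 0.456) and rho = -0.62 (exact permutation p = 0.115, adjusted 0.664), with r = -0.52 without the 2 farthest lambs and -0.63 within genotypes. The relation of the other CYB5R4 probe set was not tested. In NmatNpat animals 1 and 4, the highest for SCD5, the brightest CYB5R4 probe set read 6.36 and 7.06, and the other 6.97 and 6.70. SCD5 and CYB5B, the cytochrome b5 of the outer mitochondrial membrane, had r = -0.70 (exact permutation p = 0.0471, adjusted 0.456) and rho = -0.71 (exact permutation p = 0.0576, adjusted 0.664), with r = -0.66 without the 2 farthest lambs and -0.64 within genotypes. The other CYB5B probe set ran from 4.44 in NmatCpat animal 1 to 7.49 in NmatCpat animal 4, the lamb with the lowest SCD5. The relation of that probe set with SCD5 was not tested.

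Of 25 genes that control these enzymes, chiefly the SREBP, liver X receptor and ChREBP systems, 22 had a probe set. Of these 9 read higher and 13 lower in NmatCpat lambs, with a median difference of -0.07, 0 passed P and fold, and 1 had P of at most 0.05 beside 4.66% of all probe sets. That gene was NR1H2 (liver X receptor beta, an oxysterol receptor that activates SREBF1 transcription), at 8.25, 8.14, 7.96 and 7.85 in NmatCpat animals 1 to 4, against 8.34, 8.54, 8.37 and 8.46 in NmatNpat animals 1 to 4. The genotypes did not overlap, at a difference of -0.38 (95% interval -0.75 to -0.00612, limma P = 0.0471, adjusted p = 0.983, exact permutation p = 0.0286). Of the 22 genes 1 separated, beside 1.32% of all probe sets with every NmatCpat lamb lower and 2.74% in either direction. In limma, P stayed at most 0.05 in only 1 of the 8 fits that left out a lamb (without NmatCpat animal 1, -0.44), and the difference was -0.31 without NmatCpat animal 4, -0.41 without NmatNpat animal 1 and -0.34 without both. P also exceeded 0.05 with median-centred arrays, where the difference was -0.37.

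SREBF1, which encodes the SREBP-1 activator of SCD, FADS2 and ELOVL6, had a difference of 0.27 on its brightest probe set (95% interval -0.35 to 0.90, limma P = 0.341, exact permutation p = 0.29), and 0.48, -0.18 and -0.52 on the other 3. Its probe sets thus differed in sign. INSIG1, which holds the SREBP precursor in the endoplasmic reticulum and is itself an SREBP target, read 11.14, 10.22, 11.52 and 11.77 in NmatCpat animals 1 to 4, against 11.50, 11.69, 11.91 and 12.29 in NmatNpat animals 1 to 4. The 2 lowest readings were from NmatCpat animals 2 and 1, the lambs with the highest ELOVL6. This match was picked after the values were seen, and a relation of INSIG1 with ELOVL6 was not tested. The INSIG1 difference of -0.68 was not called (95% interval -1.51 to 0.14, limma P = 0.0919, exact permutation p = 0.14), but passed P and fold without NmatCpat animal 4, at -0.88, as it did without NmatCpat animal 4 and NmatNpat animal 1 together. In the other direction, it shrank to -0.37 without NmatCpat animal 2, the lamb with the lowest reading, and to -0.54 without NmatNpat animal 4.

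Of 13 genes that make, import or activate fatty acids for these enzymes, 12 had a probe set. Of these 11 read higher and 1 lower in NmatCpat lambs, with a median difference of 0.30 beside 0.00546 over all probe sets, 0 passed P and fold, and 1 had P of at most 0.05. That gene was ACSL5, an acyl-CoA synthetase, at 7.94, 7.85, 7.99 and 7.93 in NmatCpat animals 1 to 4, against 7.69, 7.03, 7.34 and 7.59 in NmatNpat animals 1 to 4. Every NmatCpat lamb read above each NmatNpat lamb, at a difference of 0.51, a 1.43-fold level (95% interval 0.08 to 0.95, limma P = 0.0259, adjusted p = 0.983, exact permutation p = 0.0286). Of the 12 genes 1 separated, beside 1.41% of all probe sets with every NmatCpat lamb higher and 2.74% in either direction. With 1 lamb left out, P stayed at most 0.05 in 4 of 8 fits and exceeded it without NmatCpat animal 1 (0.51), NmatCpat animal 3 (0.49), NmatNpat animal 2 (0.39) or NmatNpat animal 3 (0.49). Without NmatCpat animal 4 the ACSL5 difference was 0.51, and it passed P and fold without NmatNpat animal 1, at 0.61, as it did without both, also at 0.61. FASN, the synthase that makes palmitate, had a difference of 0.52 (95% interval -0.30 to 1.33, limma P = 0.18, exact permutation p = 0.26), which was 0.24 without NmatCpat animal 1 and 0.72 without NmatNpat animal 4. Genes of this kind share regulators and lambs, so the 11 are not independent observations.

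Of 14 genes that take up the products, into phospholipids or for peroxisomal chain shortening, 10 had a probe set, 5 higher and 5 lower in NmatCpat lambs. Their median difference was -0.03, 0 passed P and fold, and 0 had P of at most 0.05. The smallest P belonged to LPCAT3, which places polyunsaturated chains in phospholipids (difference 0.37, 95% interval -0.01 to 0.75, limma P = 0.0571, exact permutation p = 0.057), with its other probe set at -0.09, and the next to sterol carrier protein 2 (SCP2), whose long form is a peroxisomal thiolase (0.34, 95% interval -0.12 to 0.81, limma P = 0.127, exact permutation p = 0.14).

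Among 6332 genes above the median level, those with patterns most like SCD over the 8 lambs were RASSF3 (r = 0.94), AP2S1 (0.91), RAB22A (0.90) and TCF21 (0.90). Those most like ELOVL6 were TMED3 (r = 0.95), ADIPOQ (0.94), STT3B (0.94) and EIF3H (0.94). These are the highest of many values over 8 lambs that share their arrays, and are given as a description.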

How the data were processed

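Total RNA of perirenal adipose tissue from 8 lambs was hybridised to 1-colour arrays, 1 per lamb. The authors applied MAS5, of a version not stated in the labels or methods, and, by those methods, then corrected background and quantile-normalized. The intensity values they deposited are linear (lowest 0.1) and do not share quantiles between arrays, so they were log2-transformed and quantile-normalized here. Array medians ran from 65.9 to 71.7 for NmatCpat lambs and from 65.3 to 72.6 for NmatNpat lambs, and array correlations 0.891 to 0.923. The number of arrays limits the precision.

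After 112 of the 24128 probe sets, the controls, were left out, 24016 entered lmFit and eBayes of limma 3.58.1 (R 4.3.3), without covariates and with Benjamini-Hochberg adjustment. The study names a package but no statistic. Its thresholds were used, with P of at most 0.05 and fold over 1.5. Exact permutation tests and correlations used Python 3.11.15. The scripts were tested on simulated data.

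Symbols came from the platform annotation, with 1 symbol for 13292 probe sets, several for 86 and none for 10638. The probe set with the highest mean stood for a gene. Because FADS1 and HSD17B12 were not named, only 15 pairs were computed, fewer than planned for 8 genes, and no genes like FADS1 were sought. The members and lists were chosen with earlier results of these data known. The genes named were the members, every other listed gene with P of at most 0.05 (otherwise the 2 with the smallest P in a list), SREBF1, INSIG1, TECR, CYB5A and FASN, and ELOVL4, whose values in the study's supplementary material had been seen. HACD4, FADS3, ELOVL7, CYB5R4, CYB5B and the relations with partner genes were chosen after their values were seen. Markers of other cell types were read by their summed intensity, and those of skeletal muscle also by their mean log2 deviation.

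Alternatives changed the normalization (median centring, cyclic loess, an offset of 16), the variance (no moderation, trended robust, array weights) and the probe sets and lambs used: filters on dim or unspecific probe sets, animal number as a block, omitted lambs, the mean of a gene's probe sets and other thresholds.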

Additional observations from a re-analysis of the deposited data

Results flagged for a closer look

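ELOVL1 in NmatCpat animal 2 read 4.64, while the other NmatCpat lambs read 6.79 to 7.22. The gap to the nearest lamb was 0.835 of the range of the group, above Dixon's 95% critical value for 4 samples. Of 32 groups of lambs examined in this way 1 stood out, and chance gives about 1 in 20.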

How the results depend on the processing

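No desaturase or elongase passed P and fold in any of the 21 alternatives, and none of the 14 alternatives gave a correlated pair. The probe sets past P and fold numbered 626 without moderation, 244 among the 12008 above the median level, 210 at P of at most 0.01, and 979 to 1052 with 1 lamb left out. At an adjusted p, 1 passed among those above the median level, 1 after adding 16 before the log and 1 under trended robust variances, and 0 to 2 with 1 lamb left out. The partner gene ELOVL4 was lost (0 called) without moderation, with the mean of probe sets, at P of at most 0.01 and without NmatNpat animal 1 and NmatCpat animal 4. With 1 lamb left out 0 to 1 passed. The filter above the median level removed ELOVL4 itself, and 0 of the 10 partner genes left were called. Regulators had 1 called with a trended robust variance, with no fold threshold and without both lambs, and 0 to 1 with 1 left out. Supply genes had 3 called without both lambs, 1 with the mean of probe sets and 1 with no fold threshold, and 0 to 2 with 1 left out. Acceptor genes had 0 to 1 with 1 left out. Signs reversed for ELOVL1 after adding 16 before the log (0.00786), with array weights (0.02), without NmatCpat animal 2 (0.54) and without NmatNpat animal 2 (0.05); for FADS2 without NmatCpat animal 2 (0.01) and without NmatNpat animal 1 (0.02); for SCD without NmatCpat animal 4 (-0.00101); and for CYB5A without NmatCpat animal 2 (-0.05). With 1 lamb left out, the differences of SCD reached 0.31, of FADS2 -0.70, of ELOVL1 -0.32 and of CYB5A 0.48 at the other end. The causes were not tested. Of 303 values of 16 single genes, 282 kept their sign and their side of P and fold together, 7 lost that call, 6 gained it and 8 reversed. By P of at most 0.05 alone, 21 lost it (10 of NR1H2, 7 of ELOVL4 and 4 of ACSL5) and 13 gained it (6 of LPCAT3, 4 of INSIG1, 2 of ELOVL5 and 1 of SCP2).

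The labels do not say whether the animal numbers pair the lambs. Deviations of same-numbered lambs correlated between -0.0131 and 0.048, and those of differently numbered lambs between -0.0584 and 0.0155. The highest values, 0.048 for animals 3 and 0.0388 for animals 1, came from same-numbered lambs, so pairing was not excluded. With the number as a replicate block 1124 probe sets passed P and fold, in place of 943, with 0 partner genes and 1 regulator (INSIG1), and desaturases and elongases stayed at 0.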
